A study of Mus musculus with 10 samples.

Results

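The 35 genes described here belong to the response to interferon gamma and to antigen presentation. They were taken by gene symbol from the 27179 Entrez genes of the deposited count table, and all 35 were found and passed the filter on low counts that left 15301 genes for testing. By role they fall into 7 groups: 8 guanylate-binding proteins (GBPs), 5 immunity-related GTPases (IRGs), 4 regulators with the chemokine Cxcl9, the 2 subunits of the TAP peptide transporter, 5 genes of the immunoproteasome and its PA28 activator, 4 genes of MHC class I and 6 of MHC class II. RNA of the whole lung was compared between 5 Flox mice (Shh +/+, IRE1α fl/fl) and 5 EpithelialKO mice (Shh Cre/+, IRE1α fl/fl). Both groups therefore carry floxed alleles of Ern1, the gene of the endoplasmic reticulum stress sensor IRE1α, and only the EpithelialKO mice carry Cre, which replaces 1 of their Shh alleles. Cre expressed from the Shh locus acts in the lung epithelium, and endothelial, stromal and immune cells are not its target. A Cre control without floxed alleles was not among the groups analysed here. The labels give no age, sex, strain background, treatment or batch, and each library comes from a separate numbered mouse.

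Libraries held 14983829 to 21224412 counts in Flox and 16234895 to 18870247 in EpithelialKO. Flox mice 4 and 6 stood apart: Xist, the RNA of the inactive X chromosome, reached 3949 and 4866 counts in them, where 4 Y-linked genes summed to 0. In the other 8 mice Xist was at 2 to 61 counts and the Y-linked sum at 2462 to 3575. By these counts Flox mice 4 and 6 were female and the other 8 mice male. Both female mice were in Flox, so sex was not balanced between the groups, and its part in the group differences was not tested. Values without Flox mice 4 and 6 are given for the results that moved when they were left out. Ern1 itself was at 8.05 to 20.5 CPM (counts per 1000000 of the library size scaled by TMM) in Flox and 10.7 to 26.1 in EpithelialKO (log2 fold change 0.04 ± 0.27 SE, edgeR adjusted p = 0.975), and gene-level counts of a whole lung do not check a deletion confined to its epithelium. Markers of AT2 cells and of endothelium were present in every mouse, as the label of whole lung calls for, with summed levels of 35231 to 52616 CPM over 5 AT2 genes and 1500 to 2568 CPM over 5 endothelial genes.

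Interferon gamma, made mainly by T cells and NK cells, binds a receptor that signals through the kinases JAK1 and JAK2. Promoters that respond directly carry gamma-activated sites (GAS), among them that of the transcription factor IRF1, which binds interferon-stimulated response elements (ISRE). The GBP and IRG GTPases induced in this way assemble on the vacuoles of intracellular pathogens. On the presentation side, the immunoproteasome makes peptides, TAP carries them into the endoplasmic reticulum and MHC class I molecules, built of a heavy chain and B2m, display them. NLRC5 is the transactivator of class I genes and CIITA that of class II genes, and both act through a conserved promoter module that ends in the Y box. In lung, class II genes are expressed by dendritic cells, B cells, macrophages and also AT2 cells, and class I genes by nearly all cells.

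Promoter windows of RefSeq (GRCm38.p6), 300 bases from 250 before to 50 after each transcript start, were held for 25 of the members in 30 windows. The remaining 10 members (Cd74, Nlrc5, H2-Ab1, Iigp1, Tap2, Ciita, Gbp4, Gbp6, Gbp8 and Gbp9) had no entry. Stretches are shown for the GTPases, where motifs of interferon signalling were most frequent among the groups of members, and for Irf1, which carries a GAS, in lower case with the motif in capitals, 5′ to 3′ on the strand of the gene. The GAS was searched as TTCNNNGAA and the ISRE as GAAA, any 2 bases and GAAA again, on both strands, so that a reverse ISRE begins and ends with TTTC.
Igtp (chr11:58199501-58199541, plus strand, GAS then ISRE): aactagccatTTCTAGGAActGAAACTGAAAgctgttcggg
Irgm2 (chr11:58214892-58214932, plus strand, GAS then ISRE): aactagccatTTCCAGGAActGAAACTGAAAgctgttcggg
Tgtp1 (chr11:48992304-48992344, minus strand, GAS then ISRE): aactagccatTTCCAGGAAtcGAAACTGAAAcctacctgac
Irf1 (chr11:53769914-53769942, plus strand, GAS): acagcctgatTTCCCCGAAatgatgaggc
Gbp2 (chr3:142620594-142620623, plus strand, ISRE): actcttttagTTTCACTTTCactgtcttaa
Gbp3 (chr3:142559989-142560024, plus strand, 2 overlapping ISREs): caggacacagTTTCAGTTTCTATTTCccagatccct
Gbp5 (chr3:142496759-142496788, plus strand, ISRE): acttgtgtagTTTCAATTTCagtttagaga
Gbp7 (chr3:142530273-142530302, plus strand, ISRE): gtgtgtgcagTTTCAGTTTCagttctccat

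The stretches of Igtp and Irgm2, neighbours on chromosome 11, shared 40 of 41 bases, and those of Irgm2 and Tgtp1 shared 32. An ISRE lay in the window of all 4 GBP genes and all 4 IRG genes that had one, against 3.44% of the 32851 windows in the table, and a GAS in 2 of the 4 and 3 of the 4, against 8.30%. Over all members an ISRE was found in 12 of 25 and a GAS in 7 of 25. Windows with both motifs belonged to 5 members and made up 0.454% of the table. These are matches of letters, given as a description of the windows.

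The class I and class II stretches are shown for the Y box, searched as TGATTGG or its reverse CCAATCA, with 30 bases on either side.
H2-D1 (chr17:35263011-35263077, plus strand): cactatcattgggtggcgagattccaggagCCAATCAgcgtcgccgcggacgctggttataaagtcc
H2-T23 (chr17:36032717-36032783, minus strand): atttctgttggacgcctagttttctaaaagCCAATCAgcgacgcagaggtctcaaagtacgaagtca
H2-Aa (chr17:34287837-34287903, minus strand): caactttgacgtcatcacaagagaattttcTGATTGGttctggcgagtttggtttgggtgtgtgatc
H2-Eb1 (chr17:34305776-34305842, plus strand): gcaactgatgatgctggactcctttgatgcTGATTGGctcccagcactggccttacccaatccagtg
H2-DMb1 (chr17:34153098-34153164, plus strand): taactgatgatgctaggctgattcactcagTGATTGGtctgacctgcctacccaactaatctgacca
The Y box letters lay in the window of 3 of the 4 class I members (H2-K1, H2-D1 and H2-T23, not B2m) and of 3 of the 4 class II members with an entry, against 7.82% of all windows. Over all members they were found in 9 of 25, among them Cxcl9. In H2-K1 they began 8 bases after 1 annotated start and 6 bases before the other, so at the start itself. The match read CCAATCA in the printed class I stretches and TGATTGG in the printed class II stretches. These too are matches of letters. Whether any of them is the Y box of the module used by NLRC5 and CIITA was not tested.

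No member passed an adjusted p of 0.05 in edgeR's quasi-likelihood test, where 6 of the 15301 genes did (0.0392%). Without adjustment, 7 of the 35 members (20.0%) had a p under 0.05 in edgeR, all lower in EpithelialKO: Gbp2, Gbp3, Gbp5, Gbp9, Tap1, H2-T23 and H2-Ab1. Among all genes tested, 6.52% were lower at that level and 5.87% higher. The fold change was negative for 28 of 35 members (80.0%), against 49.9% of all genes, and the median log2 fold change of the members was -0.19, against 0.00084 over all genes. The Wald test of DESeq2 called 1 member, Tap1 (adjusted p = 0.0408), where it called 2.21% of the 12627 genes to which it gave an adjusted p. Without Flox mice 4 and 6 edgeR called no gene and 5 members had an unadjusted p under 0.05 (Gbp2, Gbp3, Tap1, H2-T23 and H2-Ab1), all lower, against 4.12% of all genes, and 28 fold changes were negative. Leaving out these 2 mice moved the log2 fold change to 0.06 for Igtp, -0.03 for Socs1, 0.21 for B2m, 0.00713 for Irf1, 0.00438 for Psme1, -0.18 for Psme2, -0.24 for Tap2, 0.07 for Gbp8 and -0.06 for both Irgm1 and H2-DMb1, and other members that moved by over 1.5 times are given below. The count of 7 also moved with single mice: it was 3 without Flox mouse 3 (6.09% of all genes were lower at that level), 11 without Flox mouse 5 (7.97%) and 14 without EpithelialKO mouse 18 (6.67%). In bulk RNA, fewer cells of a type and less RNA per cell cannot be told apart.

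The plot of members by mouse shows the levels behind these counts.

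**Figure D1:**
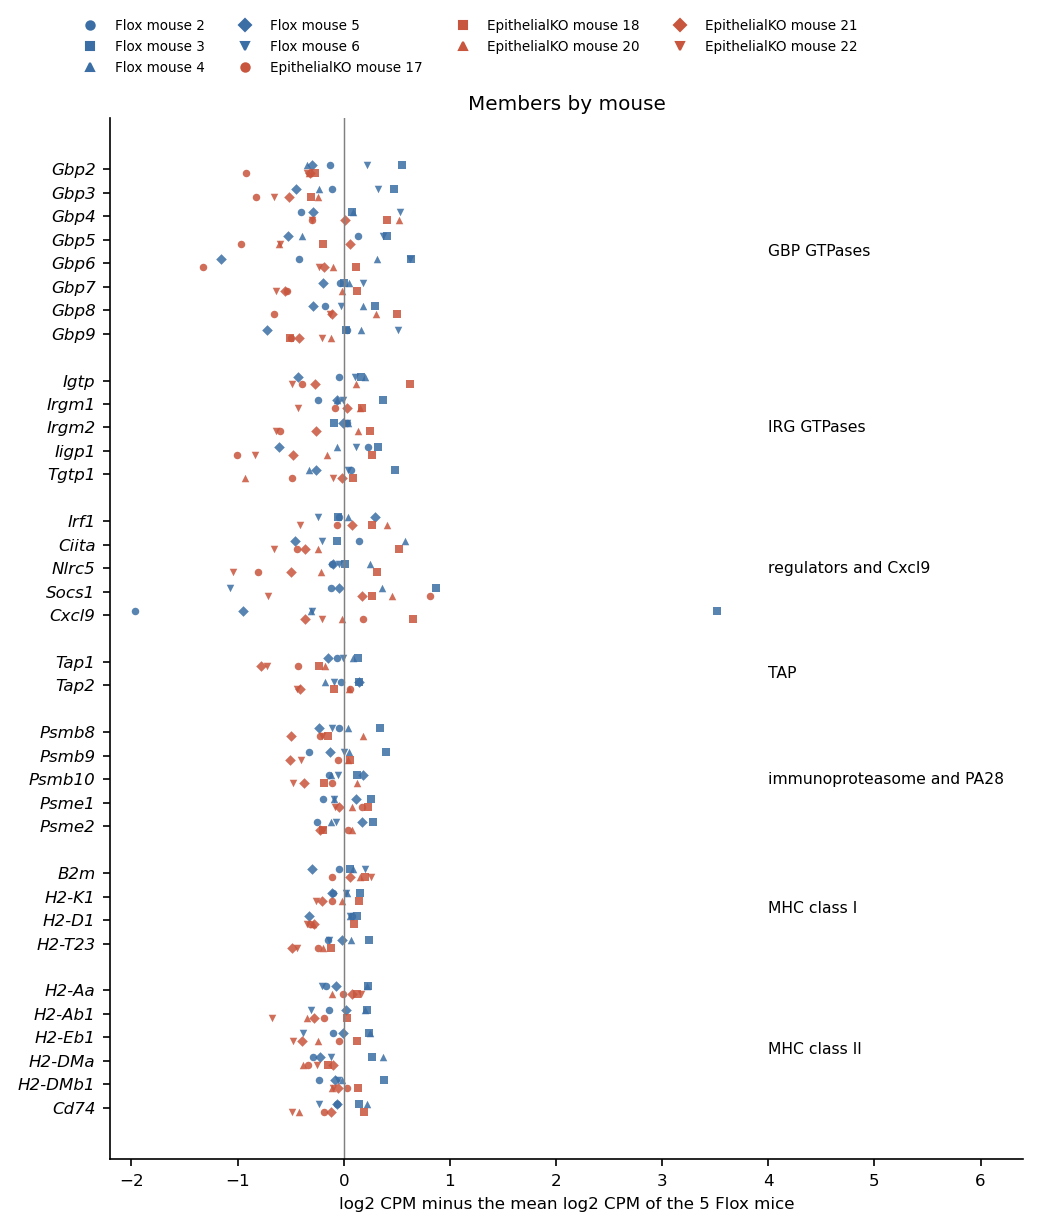
Level of each of the 35 members in each mouse, as log2 CPM minus the mean log2 CPM of the 5 Flox mice, with Flox mice in blue, EpithelialKO mice in red and the symbol marking the mouse. EpithelialKO mice 17 and 22 lie to the left in most rows, EpithelialKO mouse 18 lies to the right of the other EpithelialKO mice in 21 rows, and Flox mouse 3 stands far to the right for Cxcl9.

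**Figure D2:**
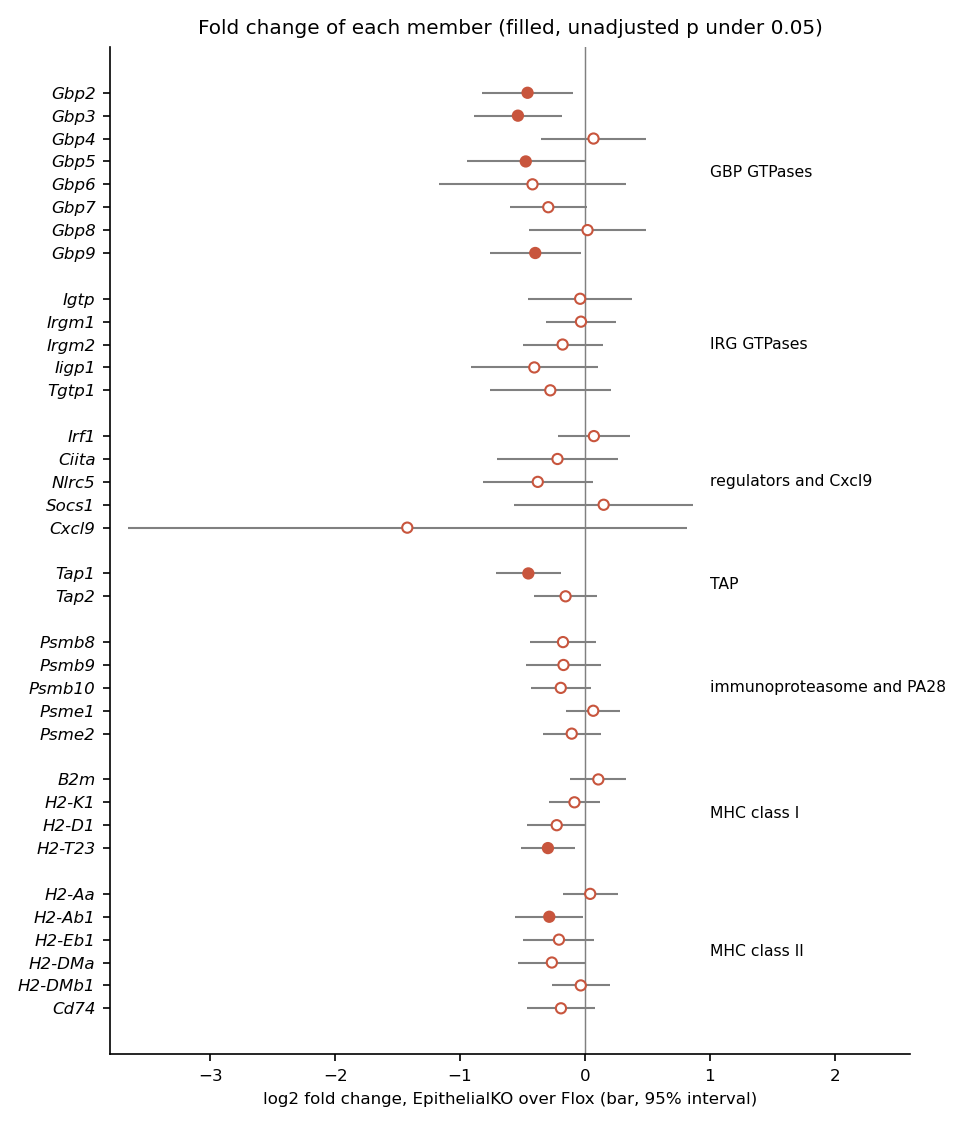
Log2 fold change of each member, EpithelialKO over Flox, from the edgeR fit of 15301 genes, with bars for the 95% interval and filled points for an unadjusted p under 0.05. The points of 28 members lie left of 0 and the 7 filled points are all among them. The interval of Cxcl9 is the widest, from -3.66 to 0.81.

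Within a group, the members tended to be highest or lowest in the same mice. EpithelialKO mouse 18 was the highest EpithelialKO mouse for 21 of the 35 members and mouse 22 the lowest for 16. Among Flox mice, mouse 3 was the highest for 22 members and mouse 5, which had the smallest library, the lowest for 14. The mean deviation from Flox over the 35 members, on the log2 scale, was -0.39 in EpithelialKO mouse 22, -0.31 in mouse 17, -0.25 in mouse 21, -0.07 in mouse 20 and 0.10 in mouse 18, and it ran from -0.22 (mouse 5) to 0.34 (mouse 3) within Flox. The group means of this score differed by -0.18, and its SD between mice was 0.22 in Flox and 0.20 in EpithelialKO (n = 5). The difference in this score was not tested.

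The GBPs had a median of -0.41 on the log2 scale, and 6 of the 8 genes were negative. This was the lowest median of the 7 groups in the fit of all mice and in 13 of 18 alternatives, and TAP had the lowest in 4. They lie in 2 clusters, on chromosome 3 (Gbp5, Gbp7, Gbp3 and Gbp2, between 142496934 and 142638008) and on chromosome 5 (Gbp8, Gbp9, Gbp4 and Gbp6, between 105012513 and 105295871). All 4 chromosome 3 genes were negative, with a median of -0.47, while the chromosome 5 genes divided 2 against 2, with a median of -0.19. Of the chromosome 5 genes, Gbp6 and Gbp9 were at -0.42 and -0.40, and Gbp4 and Gbp8 lay near 0, at 0.07 and 0.02. That division did not hold in all settings. All 8 GBPs were negative without Flox mouse 2, Flox mouse 5, EpithelialKO mouse 18 or EpithelialKO mouse 20. The difference between the clusters was not tested. Without Flox mice 4 and 6 the median of the 8 GBPs was -0.19 and that of TAP was -0.33, and Gbp6 was at -0.15 and Gbp4 at 0.30.

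Gbp3 was at 48.1, 72.1, 44.1, 38.1 and 64.9 CPM in Flox mice 2 to 6 and at 29.2, 42.0, 43.9, 36.3 and 33.0 in EpithelialKO mice 17, 18, 20, 21 and 22. Of the EpithelialKO mice 3 lay below every Flox mouse, and the other 2 lay within the lower part of the Flox range. The group means were 53.4 ± 14.4 and 36.9 ± 6.12 CPM (SD, n = 5), and edgeR gave a log2 fold change of -0.54 ± 0.17 (SE; adjusted p = 0.203).
Gbp2, the GBP with the highest level, was at 90.7, 144, 78.0, 80.4 and 115 CPM in Flox and at 52.1, 82.1, 78.7, 79.4 and 77.9 in EpithelialKO. EpithelialKO mice 18, 20, 21 and 22 lay close together at the bottom of the Flox range, mouse 22 just under it, and mouse 17 lay well below. The log2 fold change was -0.46 ± 0.17 (SE; edgeR adjusted p = 0.281), and it was -0.30 without Flox mouse 3, the mouse with the highest value.
Gbp5, which promotes inflammasome assembly, and Gbp9 had log2 fold changes of -0.47 ± 0.22 and -0.40 ± 0.17 (edgeR adjusted p = 0.400 and 0.356), and Gbp9 was at -0.16 without Flox mice 4 and 6. The remaining GBPs were Gbp6 at -0.42 ± 0.34, Gbp7 at -0.29 ± 0.14, Gbp4 at 0.07 ± 0.20 and Gbp8 at 0.02 ± 0.22 on the log2 scale. Sequence sharing limits some of these values: 90.2% of the 50-base stretches of Gbp6 transcripts also occur in transcripts of another gene, most often Gm43302, against 3.83% for Gbp3 and 2.07% for Gbp2. The shares were 21.2% for Gbp8, 12.7% for Gbp7, 11.9% for Gbp4, 9.56% for Gbp9 and 0.234% for Gbp5.

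The 5 IRGs were all negative in the fit of all mice, with a median log2 fold change of -0.18. The median was -0.31 without EpithelialKO mouse 18, -0.09 without mouse 17 and -0.08 without mouse 22. These genes include the membrane-bound regulators Irgm1, Irgm2 and Igtp (also called Irgm3) and the effectors Iigp1 (Irga6) and Tgtp1 (Irgb6). Iigp1 was at 57.1, 60.8, 46.6, 31.9 and 52.6 CPM in Flox and at 24.1, 58.4, 43.5, 34.9 and 27.1 in EpithelialKO. Mice 17 and 22 lay below all Flox mice and the other 3 EpithelialKO mice within the Flox range (log2 fold change -0.41 ± 0.23 SE, edgeR adjusted p = 0.513). Tgtp1 was at 9.07, 12.1, 6.90, 7.19 and 8.94 CPM in Flox and at 6.14, 9.23, 4.49, 8.54 and 8.06 in EpithelialKO (-0.28 ± 0.23, edgeR adjusted p = 0.664). The groups overlapped, and 81.2% of the 50-base stretches of Tgtp1 are shared with other genes, mainly its neighbour Tgtp2, which had a log2 fold change of 0.10.

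Irgm2 showed a different arrangement of the mice. It lay between 59.7 and 65.7 CPM in all 5 Flox mice (65.0, 59.7, 65.7, 63.2 and 65.0) and between 40.9 and 75.5 in EpithelialKO (42.0, 75.5, 69.9, 53.2 and 40.9). Of the EpithelialKO mice, 3 lay below every Flox mouse and 2 above every Flox mouse, so that the SD was 2.43 CPM in Flox and 15.9 in EpithelialKO and the log2 fold change was -0.18 ± 0.15 (edgeR adjusted p = 0.673). Igtp and Irgm1 were at -0.04 ± 0.19 and -0.03 ± 0.13 on the log2 scale, and their sign turned positive in 7 and 2 of 18 alternatives.

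Of the regulators, the 2 transactivators were lower on average and Irf1 was not. Nlrc5 was at 20.7, 22.5, 26.6, 20.8 and 21.7 CPM in Flox and at 12.7, 27.7, 19.3, 15.8 and 10.8 in EpithelialKO. All EpithelialKO mice but mouse 18 lay below every Flox mouse, and mouse 18 lay above them all. The log2 fold change was -0.38 ± 0.21 (SE; edgeR adjusted p = 0.481). Ciita was at 26.1, 22.7, 35.4, 17.2 and 20.5 CPM in Flox and at 17.4, 34.1, 20.0, 18.3 and 14.9 in EpithelialKO, where mouse 18 again stood above the rest (-0.22 ± 0.23, edgeR adjusted p = 0.741). The fold change of Ciita was -0.05 without Flox mouse 4, -0.07 without Flox mice 4 and 6, -0.12 without EpithelialKO mouse 22 and -0.47 without EpithelialKO mouse 18, and that of Nlrc5 was -0.62 without mouse 18 and -0.25 without mouse 22. Irf1, the transcription factor whose GAS is printed above, was at 101, 100.3, 107, 127 and 87.8 CPM in Flox and at 99.1, 125, 138, 109 and 78.1 in EpithelialKO. Its groups overlapped and its log2 fold change was 0.07 ± 0.14 (95% interval -0.22 to 0.36, edgeR adjusted p = 0.879). Socs1, the feedback inhibitor of the JAK kinases, had a log2 fold change of 0.15 ± 0.34.

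Cxcl9, a chemokine for CXCR3-bearing T cells, had the most negative log2 fold change of all members, -1.42 ± 1.0 (SE; edgeR adjusted p = 0.613), and it rested on 1 mouse. It was at 0.372, 21.4, 1.41, 0.865 and 1.42 CPM in Flox mice 2 to 6 and at 2.03, 2.86, 1.75, 1.35 and 1.52 in EpithelialKO. Flox mouse 3 held 398 of the 473 Flox counts, and the other 4 Flox mice lay at 1.42 CPM or less, where the EpithelialKO mice ran from 1.35 to 2.86. Without Flox mouse 3 the log2 fold change was 0.90. The related chemokine Cxcl10, named here after its values were seen, was also highest in that mouse, at 10.8 CPM against 0.837 to 4.11 in the other Flox mice and 0.686 to 3.02 in EpithelialKO, and its log2 fold change moved from -1.13 to -0.17 without it.

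The ligand and the signalling genes upstream of the members were measured in the same libraries. Ifng had 0 to 24 counts per mouse, 41 in all Flox and 44 in all EpithelialKO mice, and did not pass the filter, so its level cannot be compared at this depth. Jak1 had the lowest p of the 9 tested genes of the list of receptor and signalling genes, with 212 ± 18.8 CPM in Flox and 184 ± 15.0 in EpithelialKO (SD, n = 5) and a log2 fold change of -0.20 ± 0.09 (edgeR adjusted p = 0.364). Irf2, a transcription factor that competes with IRF1, followed at 55.4 ± 5.78 and 49.8 ± 5.45 CPM (SD, n = 5; -0.15 ± 0.11, edgeR adjusted p = 0.589). Of the list, 7 were negative and 2 positive, with a median of -0.05, and without Flox mice 4 and 6 it was 5 and 4, with a median of -0.00946. Another list held 14 further genes induced by interferon gamma, of which 11 were tested: 9 were negative and 2 positive, none had an unadjusted p under 0.05 in edgeR, and the median was -0.16, or -0.08 without Flox mice 4 and 6. Its lowest p values belonged to Gbp2b (Gbp1), with 67 counts in Flox and 24 in EpithelialKO (-1.34 ± 0.74, edgeR adjusted p = 0.485), and Nos2, the inducible nitric oxide synthase (-0.73 ± 0.41, edgeR adjusted p = 0.490, and -0.48 without Flox mice 4 and 6).

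Tap1 was the member with the lowest p. It encodes 1 of the 2 chains of the transporter that moves peptides into the endoplasmic reticulum. Its level was 63.6, 72.9, 70.5, 59.8 and 65.9 CPM in Flox and 49.3, 56.3, 58.8, 38.5 and 40.1 in EpithelialKO. All 5 EpithelialKO mice lay below all 5 Flox mice, as for no other member, and as for 1.48% of all genes tested (1.63% had all 5 above). The highest EpithelialKO mouse, 20, was 58.8 and the lowest Flox mouse, 5, was 59.8. The means were 66.5 ± 5.26 and 48.6 ± 9.20 CPM (SD, n = 5), and edgeR gave a log2 fold change of -0.45 ± 0.12 (SE; adjusted p = 0.153). The log2 fold change lay between -0.53 and -0.38 over 18 alternative settings, with adjusted p values from 0.0408 (DESeq2) to 0.526 (edgeR without Flox mice 4 and 6). Tap2, the gene of the other chain, was at 56.8, 64.0, 51.1, 63.8 and 54.1 CPM in Flox and at 60.0, 54.3, 59.8, 43.4 and 42.6 in EpithelialKO. Mice 21 and 22, the lowest for Tap1 too, lay below all Flox mice, and the log2 fold change was -0.16 ± 0.12 (edgeR adjusted p = 0.635).

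Tap1 (chr17:34187556-34197225) and the immunoproteasome gene Psmb9 (chr17:34182030-34187330) are transcribed away from each other from start sites 226 bases apart. The 225 bases between the start sites are shown on the strand of Tap1 because both genes are members and differed in how the mice were arranged. A match to the Y box letters is in capitals, and neither the GAS nor the ISRE letters occur in the window of either gene.
Tap1 to Psmb9 (chr17:34187331-34187555): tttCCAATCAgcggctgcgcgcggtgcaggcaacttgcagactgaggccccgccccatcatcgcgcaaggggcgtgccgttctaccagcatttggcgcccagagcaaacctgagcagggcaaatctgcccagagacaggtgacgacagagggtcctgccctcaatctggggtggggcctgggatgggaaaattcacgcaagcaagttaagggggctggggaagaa
Psmb9 was at 49.4, 82.0, 64.2, 56.6 and 62.3 CPM in Flox and at 59.9, 64.8, 63.8, 43.7 and 47.0 in EpithelialKO (log2 fold change -0.17 ± 0.14, edgeR adjusted p = 0.664). The groups overlapped, unlike those of Tap1. The ratio of Tap1 to Psmb9 counts was 1.08 ± 0.143 in Flox and 0.870 ± 0.0358 in EpithelialKO (SD, n = 5), with 4 of 5 EpithelialKO mice below all Flox mice. This ratio was chosen after the values were seen and was not tested.

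The immunoproteasome replaces the catalytic subunits Psmb6, Psmb5 and Psmb7 of the constitutive proteasome by Psmb9, Psmb8 and Psmb10, and PA28 (Psme1 and Psme2) opens its gate. The 3 immunoproteasome subunits were all slightly lower and Psme1 was not. Psmb10 was at 98.4, 118, 99.6, 123 and 104 CPM in Flox and at 99.97, 95.4, 118, 83.5 and 77.9 in EpithelialKO (log2 fold change -0.19 ± 0.11, edgeR adjusted p = 0.511). Psmb8 was at 125, 164, 133, 109.7 and 119 CPM in Flox and at 111, 116, 146, 91.3 and 112 in EpithelialKO (-0.18 ± 0.13, edgeR adjusted p = 0.602). Both overlapped between the groups, and EpithelialKO mouse 20 was the highest of its group for both. Psme1 was at 155, 211, 167, 192 and 166 CPM in Flox and at 199.6, 207, 187, 172 and 167 in EpithelialKO (0.07 ± 0.10, edgeR adjusted p = 0.839), and Psme2 had a log2 fold change of -0.11 ± 0.11. The 4 constitutive genes tested (Psmb5, Psmb6, Psmb7 and Psme3) were all positive, with a median of 0.13, or 0.07 without Flox mice 4 and 6. Psmb7 had the lowest p of them, at 106 ± 12.4 CPM in Flox and 119 ± 9.32 in EpithelialKO (SD, n = 5; 0.17 ± 0.10, edgeR adjusted p = 0.497), followed by Psmb6 (0.14 ± 0.09, edgeR adjusted p = 0.573, and 0.09 without Flox mice 4 and 6).

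The ratio of each immune subunit to the constitutive subunit it replaces was computed from the counts of each mouse. These ratios were added after the values of their genes in the same mice were seen, so their p values are descriptive. Psmb10 to Psmb7 was 0.821, 1.02, 0.957, 1.38 and 1.05 in Flox and 0.816, 0.859, 0.958, 0.772 and 0.596 in EpithelialKO. Mice 17, 21 and 22 lay below all Flox mice. The means were 1.04 ± 0.207 and 0.800 ± 0.133 (SD, n = 5; exact two-sided permutation p = 0.0397, 0.119 after Benjamini-Hochberg adjustment over the 3 ratios). Psmb8 to Psmb5 was 1.5 ± 0.29 in Flox and 1.2 ± 0.12 in EpithelialKO (exact permutation p = 0.0873, adjusted 0.119). Psmb9 to Psmb6 was 0.428 ± 0.0783 and 0.346 ± 0.0604 (exact permutation p = 0.119, adjusted 0.119). The 3 ratios thus did not pass after adjustment, with log2 differences of -0.38, -0.30 and -0.30. Leaving out 1 mouse gave adjusted p values from 0.0476 to 0.238. The lowest came in 3 cases, Psmb9 to Psmb6 and Psmb10 to Psmb7 without Flox mouse 2 and Psmb8 to Psmb5 without Flox mouse 5. Without Flox mice 4 and 6 the adjusted p values were 0.321 to 0.357.

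**Figure D3:**
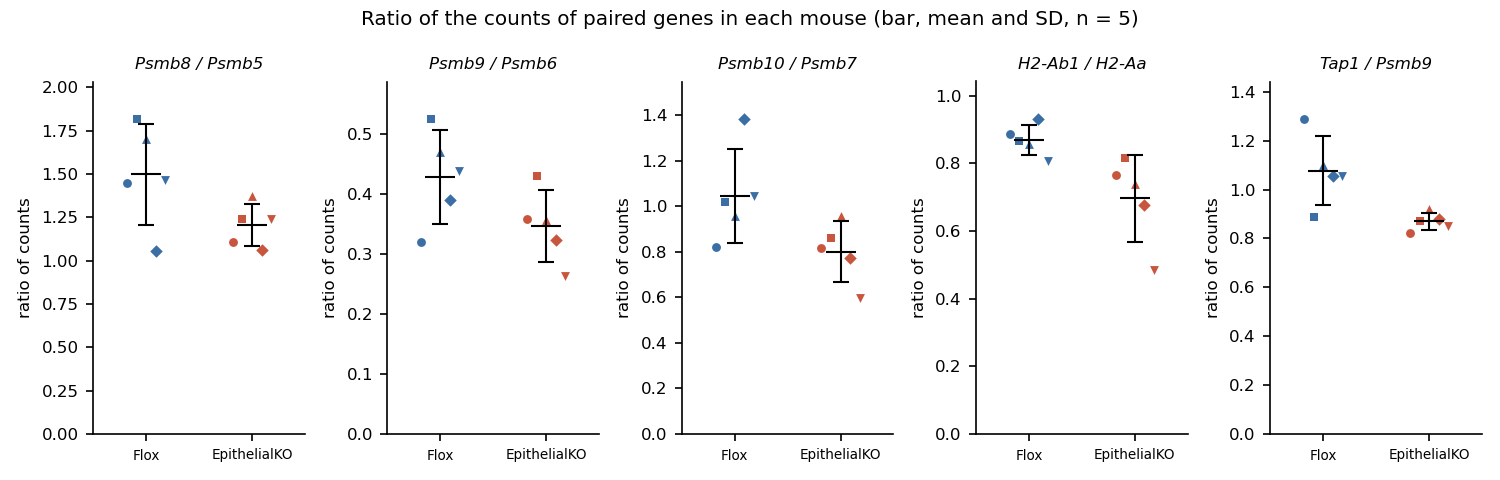
Ratio of the counts of paired genes in each mouse (points, with Flox in blue and EpithelialKO in red) with the mean and SD of each group (n = 5). The 3 proteasome ratios overlap between the groups. For H2-Ab1 to H2-Aa, 4 of the 5 EpithelialKO mice lie below all Flox mice, and for Tap1 to Psmb9 as well.

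MHC class I genes were abundant, and 3 of the 4 were negative, with a median of -0.16. Per kilobase of exon, B2m had the highest level of all members, 1550 CPM per kilobase in Flox, followed by Cd74 at 1003, H2-K1 at 407 and H2-D1 at 346, while Ciita and Nlrc5 were at 2.56 and 2.64. H2-T23, which encodes the nonclassical molecule Qa-1, was at 209.5, 274, 244, 230.3 and 212 CPM in Flox and at 197, 214, 203, 166 and 172 in EpithelialKO. All EpithelialKO mice but mouse 18 lay below every Flox mouse (-0.30 ± 0.10 SE, edgeR adjusted p = 0.244). H2-D1, a classical heavy chain, was at 937, 969.9, 921, 707 and 925 CPM in Flox and at 711, 951, 725, 729 and 699 in EpithelialKO. Here 1 mouse of each group lay with the other group: Flox mouse 5 among the lower values and EpithelialKO mouse 18 among the higher (-0.23 ± 0.11, edgeR adjusted p = 0.423). H2-K1, the other classical heavy chain, had a log2 fold change of -0.08 ± 0.10. B2m, the shared light chain, was at 1284, 1378, 1405, 1075 and 1525 CPM in Flox and at 1225, 1526, 1471, 1378 and 1580 in EpithelialKO, and was slightly higher by its mean (0.11 ± 0.11, 95% interval -0.12 to 0.33, edgeR adjusted p = 0.733). Reads can be shared between class I genes: 28.8% of the 50-base stretches of H2-T23, 13.9% of H2-D1 and 6.87% of H2-K1 occur in transcripts of other genes, and none of B2m.

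Of 12 further genes of peptide loading and nonclassical class I, all tested, 10 were negative and 2 positive, with a median of -0.14, or -0.08 without Flox mice 4 and 6. An unadjusted p under 0.05 in edgeR was reached by 4, all lower, against 6.52% of all genes lower at that level. The lowest p values were those of H2-Q7, a Qa-2 heavy chain, at 107 ± 15.9 CPM in Flox and 83.8 ± 16.2 in EpithelialKO (SD, n = 5; -0.36 ± 0.13, edgeR adjusted p = 0.274), and Tapbp, which encodes tapasin, the bridge between TAP and the class I molecule. Tapbp was at 242, 295, 244, 327 and 275 CPM in Flox and at 255, 244, 233, 212 and 189.7 in EpithelialKO, with 3 EpithelialKO mice below all Flox mice (-0.29 ± 0.11, edgeR adjusted p = 0.278). Without Flox mice 4 and 6 the fold change of H2-Q7 was -0.20 and that of Tapbp was -0.34.

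**Figure D4:**
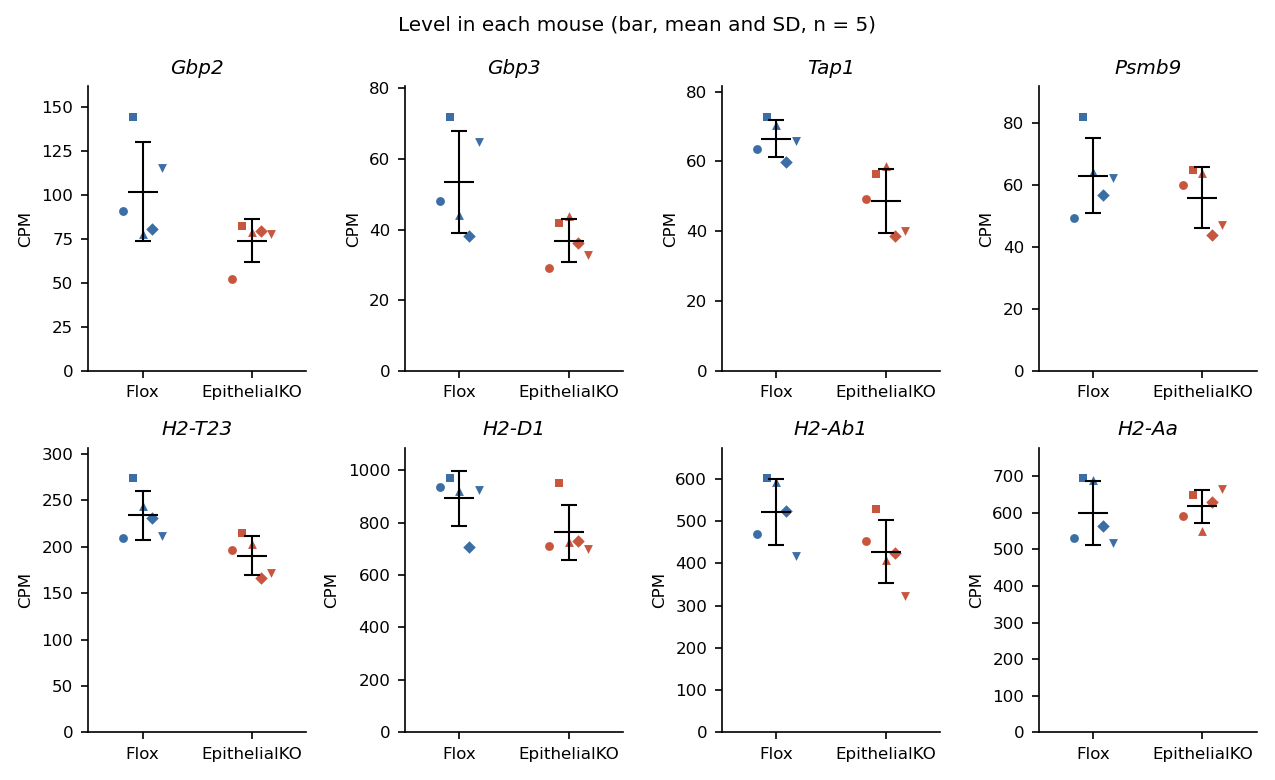
CPM in each mouse for 8 members (points, with symbols for the mice as in the plot of members by mouse) with the mean and SD of each group (n = 5). The groups are apart for Tap1, overlap for the other genes shown, and have nearly the same mean for H2-Aa.

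The MHC class II genes had a median of -0.20, with 5 of 6 negative, and the 2 chains of the I-A molecule had unlike values. H2-Ab1, the beta chain of I-A, was at 471, 602, 592, 525 and 418 CPM in Flox and at 454, 529, 408, 426 and 324 in EpithelialKO. Mice 20 and 22 lay below all Flox mice (-0.29 ± 0.13 SE, edgeR adjusted p = 0.378). H2-Aa, the alpha chain of I-A, named after its values were seen, was at 531, 695, 690.5, 564 and 518 CPM in Flox and at 592, 648, 551, 628 and 666 in EpithelialKO. Every EpithelialKO mouse lay within the Flox range (0.04 ± 0.10, 95% interval -0.18 to 0.26, edgeR adjusted p = 0.914). The ratio of H2-Ab1 to H2-Aa counts was 0.887, 0.867, 0.858, 0.931 and 0.808 in Flox and 0.766, 0.816, 0.740, 0.678 and 0.486 in EpithelialKO. All EpithelialKO mice but mouse 18 lay below every Flox mouse. The means were 0.870 ± 0.0446 and 0.697 ± 0.128 (SD, n = 5), a comparison chosen after the values were seen and not tested. Neither gene shares a 50-base stretch with another gene's transcripts.

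H2-Eb1, the beta chain of I-E, had a log2 fold change of -0.21 ± 0.13, and H2-Ea, its alpha chain, had 0 counts in all 10 mice. Cd74, the invariant chain that guides class II molecules to the endosome, was at 1600, 1850, 1947, 1600 and 1421 CPM in Flox and at 1473, 1912, 1252, 1538 and 1193 in EpithelialKO, with overlapping groups (-0.19 ± 0.13, edgeR adjusted p = 0.572). H2-DMa, a chain of the peptide exchange factor H2-M, was at 57.6, 84.5, 90.7, 60.0 and 64.6 CPM in Flox and at 55.7, 63.3, 53.7, 65.7 and 58.9 in EpithelialKO (-0.27 ± 0.13, edgeR adjusted p = 0.413). Flox mice 3 and 4 were the high ones, and the other Flox mice lay among the EpithelialKO mice. Its partner H2-DMb1 was at -0.03 ± 0.11.
Of 10 further class II pathway genes tested, 7 were negative and 3 positive, with a median of -0.13, but without Flox mouse 4 it was 4 and 6, with a median of 0.05. The lowest p values belonged to H2-Ob, a chain of the H2-O inhibitor of H2-M, at 36.9 ± 9.73 CPM in Flox and 23.4 ± 5.17 in EpithelialKO (SD, n = 5; -0.66 ± 0.18, edgeR adjusted p = 0.153), and H2-DMb2 (-0.58 ± 0.22, edgeR adjusted p = 0.299). H2-Ob was called by DESeq2 (adjusted p = 0.0315). H2-DMb2 was at -0.24 without Flox mice 4 and 6. H2-O is known to be expressed in B cells, whose markers are given below.

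Levels of regulators and targets were related across the 10 mice for 10 pairs, on the log2 CPM scale, with permutation tests and Benjamini-Hochberg adjustment over the 10 pairs, of which 1 is not reported here. Nlrc5 and H2-K1 had a Pearson r of 0.825 (permutation p = 0.00299, adjusted 0.0299) and a Spearman rho of 0.903 (permutation p = 0.00088, adjusted 0.0088). Ciita and Cd74 had an r of 0.787 (permutation p = 0.0074, adjusted 0.0359) and a rho of 0.697 (permutation p = 0.0299, adjusted 0.122). H2-Ab1 and the B cell gene Cd79a had an r of 0.775 (permutation p = 0.0108, adjusted 0.0359) and a rho of 0.503 (permutation p = 0.144, adjusted 0.240). With each mouse taken as a deviation from its group mean, the 3 correlations were 0.810, 0.765 and 0.699, and none passed after adjustment (permutation p adjusted 0.0993, 0.0993 and 0.159). Without the 2 mice farthest from the median of the regulator or of H2-Ab1, r was 0.804, 0.555 and 0.642 (permutation p adjusted 0.174, 0.263 and 0.201), so that the relations of Ciita and of Cd79a no longer reached a permutation p of 0.05 and rested in part on those mice.
The remaining pairs did not pass. Nlrc5 and B2m had an r of 0.00668 (permutation p = 0.985, adjusted 0.985), and Irf1 and Gbp2 one of -0.17 (permutation p = 0.664, adjusted 0.738). Ciita and H2-Ab1 had an r of 0.673 (permutation p = 0.0335, adjusted 0.0838). H2-Ab1 had an r of -0.32 with the dendritic cell and macrophage gene Itgax and -0.54 with the AT2 gene Lamp3 (permutation p adjusted 0.468 and 0.152). Gbp2 and the endothelial gene Pecam1 had an r of 0.533 (permutation p adjusted 0.152). The rho of these 6 pairs ran from -0.36 (H2-Ab1 and Lamp3) to 0.648 (Gbp2 and Pecam1), with adjusted permutation p values of 0.122 to 0.918. All points share the library of the mouse, so its scaling and cell composition enter both axes.

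**Figure D5:**
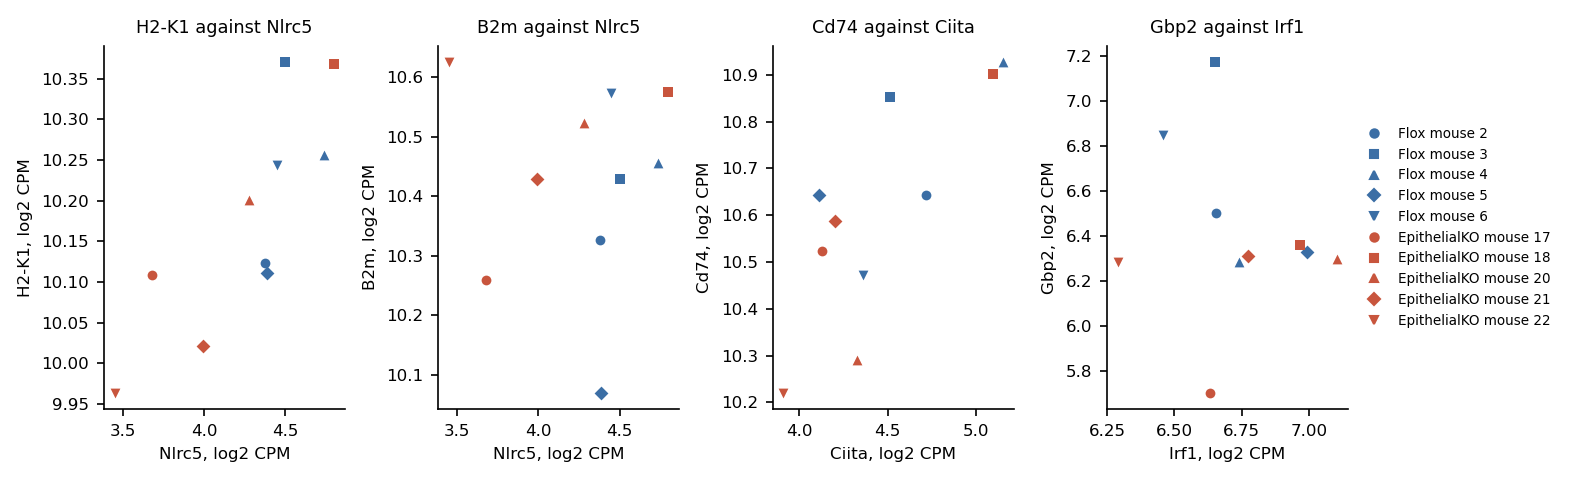
Log2 CPM of 4 pairs of genes in each of the 10 mice, with the regulator on the x axis, the target on the y axis, Flox in blue, EpithelialKO in red and symbols for the mice. H2-K1 is higher in mice with more Nlrc5 (r = 0.825) and Cd74 in mice with more Ciita (r = 0.787), while B2m against Nlrc5 and Gbp2 against Irf1 had r of 0.00668 and -0.17.

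Markers of cell types that express these genes or their ligand lay higher or lower with the groups, and their part in the results was not tested. Endothelial markers (Pecam1, Cdh5, Tek, Kdr and Cldn5) were 5 of 5 negative, each with an unadjusted p under 0.05 in edgeR. Of all genes tested, 6.52% were lower at that level. The endothelial median was -0.37, with a summed level of 1934 to 2568 CPM in Flox and 1500 to 1986 in EpithelialKO. B cell markers (Cd79a, Cd79b and Ms4a1) were 3 of 3 negative, with a median of -0.43 and a summed level of 119 to 278 CPM in Flox and 86.4 to 156 in EpithelialKO. Flox mouse 4 held the 278, and without it the Flox sums were 119 to 159.6 CPM, 2 of the 3 genes were negative and the median was -0.20. Dendritic cell markers were 7 of 7 negative, none with an unadjusted p under 0.05 in edgeR, with a median of -0.10 and summed levels of 132 to 177 CPM in Flox and 119.8 to 156 in EpithelialKO. Markers of T cells and NK cells, the main sources of interferon gamma, were 5 of 5 and 6 of 6 negative, with medians of -0.12 and -0.26 and summed levels of 53.9 to 116 against 54.3 to 105 CPM and of 114 to 181 against 90.9 to 145 CPM. The T cell list rested on Flox mouse 4: without it 2 of the 5 genes were negative, with a median of 0.07. Its mean sums were then 71.0 CPM in Flox and 71.3 in EpithelialKO. Of the 6 NK cell genes, 5 were negative without Flox mouse 4, with a median of -0.14. Leaving out EpithelialKO mouse 22 also left 5 NK cell genes negative, with a median of -0.13. Without Flox mice 4 and 6, 1 of 5 T cell genes, 3 of 6 NK cell genes and 4 of 7 dendritic cell genes were negative. Prf1, which encodes perforin, had the lowest p of the NK cell markers (-0.89, edgeR adjusted p = 0.105). It lay lower in all EpithelialKO mice than in all Flox mice, as for 1.48% of all genes tested. AT2 markers went the other way, 5 of 5 positive and 4 with an unadjusted p under 0.05 in edgeR, where 5.87% of all genes were higher. The AT2 median was 0.25, with a summed level of 35231 to 43282 CPM in Flox and 42898 to 52616 in EpithelialKO. Alveolar macrophage markers were 4 of 5 positive, with a median of 0.16, except Marco at -0.74 (edgeR adjusted p = 0.0598). The median was 0.39 without Flox mice 4 and 6. Without EpithelialKO mouse 22 it was -0.10, with 3 of the 5 genes negative. Interstitial macrophage and monocyte markers (C1qa, C1qb, C1qc, Csf1r, Ccr2 and Ly6c2) were 4 of 6 negative, with a median of -0.21 and summed levels of 229.5 to 313 CPM in Flox and 214 to 241 in EpithelialKO. C1qc had the lowest p of them (-0.39 ± 0.16, edgeR adjusted p = 0.335), and without Flox mice 4 and 6 the median was -0.12. No marker of these lists was at 0 in all mice.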

How the data were processed

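Per the labels, polyadenylated RNA of whole lung was sequenced from 10 mice, 5 per group. The submitters' processing notes name cutadapt, HISAT2 and the build GRCm38. Tool versions, the counting tool, its annotation and its strand setting are not given here in the sources used, so genes that overlap or share sequence may share counts. Each column of the deposited table holds 1 mouse's raw counts by Entrez gene, whole numbers that were not normalized. No 2 mice agreed within sampling noise (chi-square of at least 17.0 per degree of freedom).

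Of 27179 genes, 25275 matched a RefSeq symbol (GRCm38.p6), which also gave coordinates and promoter sequences. After filterByExpr and TMM scaling, 15301 genes were tested with the quasi-likelihood test of edgeR 4.0.16 (robust fit, R 4.3.3), with Benjamini-Hochberg adjustment over all of them and a threshold of 0.05. CPM are computed here from the counts and given as mean ± SD of 5 mice. Levels per kilobase use exon lengths of GENCODE M21, as do the shared 50-base stretches. The members, subgroups, marker lists, pairs and alternatives were chosen with earlier results of these data known. The subunit ratios were added later, after the values of their genes were seen. Values in every mouse are given for the 2 members of each subgroup with the lowest p, the one with the highest CPM and Irf1, Ciita and Nlrc5. Of the other pathway lists, up to 2 genes with the lowest p are named, plus Ifng and H2-Ea. Some listed genes are not reported here.

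Ratios were tested by exact permutation, two-sided, of the 252 assignments (smallest p 0.00794) and pairs by 100000 permutations. Alternatives were DESeq2 size factors, upper-quartile scaling, sample-weighted limma-voom (limma 3.58.1), DESeq2 1.42.0 (Wald test), no count filter, 1 CPM in 5 mice, leaving out each mouse, leaving out Flox mice 4 and 6, 1 surrogate variable (sva 3.50.0) and a threshold of 0.1. In data simulated from this comparison on 15301 genes, the fit recovered 29.9% of genes changed 1.5-fold, 65.2% of those changed 2-fold and 89.4% of those changed 4-fold.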

Additional observations from a re-analysis of the deposited data

Results flagged for a closer look

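In 98 groups of 5 mice, 1 value was examined for distance from the other 4 at each end, and 7 values stood apart, where chance alone flags about 1 in 20 groups. EpithelialKO mouse 18 was far above the other EpithelialKO mice for Ciita, at 34.1 CPM against 14.9 to 20.0, and for H2-D1, at 951 CPM against 699 to 729. EpithelialKO mouse 17 was far below the others for Gbp2, at 52.1 CPM against 77.9 to 82.1. Flox mouse 3 was far above the other Flox mice for Cxcl9, at 21.4 CPM against 0.372 to 1.42, and for Gbp2b, at 1.40 CPM against 0.399 to 0.605. Flox mouse 5 was far below the others for H2-D1, at 707 CPM against 921 to 969.9. Flox mouse 4 was far above the others for H2-Ob, at 53.7 CPM against 28.3 to 35.2.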

How the results depend on the processing

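Over 48 named genes and 859 values under the alternatives, 831 kept the direction and the side of the threshold, and 9 genes changed sign in at least 1 setting. None of the 48 passed the threshold in the fit of all mice, so keeping its side means only that a gene stayed uncalled. All settings reuse the same mice. No paired analysis was possible because no mouse number occurs in both groups and the labels pair none of them. The number of all genes called was 6 and became 34 without a count filter, 279 with the Wald test of DESeq2, 32 with limma-voom, 75 with 1 surrogate variable, 38 at a threshold of 0.1 and 0 without Flox mice 4 and 6, and it ran from 0 to 48 when 1 mouse was left out (48 without Flox mouse 5). The members called were 0 in every alternative but DESeq2, which called 1. Members with an unadjusted p under 0.05 were 12 with limma-voom, where 8.25% of all genes were lower at that level against 6.52% in edgeR, and 3 to 14 when 1 mouse was left out. The cause of these shifts was not tested. Signs changed, with Gbp8 going to -0.0235 and Cxcl9 to 0.0677 with limma-voom, Igtp to 0.00528 with 1 surrogate variable and to 0.0607 without Flox mice 4 and 6, and Socs1 to -0.0338 there. With 1 mouse left out, the log2 fold changes ran from -0.0549 to 0.22 for Gbp4, -0.13 to 0.15 for Gbp8, -0.26 to 0.0586 for Igtp, -0.0894 to 0.0723 for Irgm1, -0.0222 to 0.17 for Irf1, -0.0467 to 0.42 for Socs1, -1.73 to 0.90 for Cxcl9, -0.0069 to 0.10 for H2-Aa and -0.0889 to 0.0730 for H2-DMb1. The median of the regulators with Cxcl9 ran from -0.47 to 0.07 over all alternatives, and those of the other 6 subgroups stayed below 0 (-0.54 to -0.19 for GBPs, -0.31 to -0.08 for IRGs, -0.37 to -0.24 for TAP, -0.22 to -0.06 for the immunoproteasome, -0.23 to -0.12 for class I and -0.29 to -0.13 for class II). Using deviations from the group mean, the relations of Nlrc5 with H2-K1 (r = 0.810), Ciita with Cd74 (0.765) and H2-Ab1 with Cd79a (0.699) lost the threshold, as they did without the 2 farthest mice (0.804, 0.555 and 0.642). Leaving out mice for the marker and pathway lists and for the subunit ratios was chosen after seeing the data. For the ratios it gave log2 differences of -0.42 to -0.22 for Psmb8 to Psmb5, -0.41 to -0.21 for Psmb9 to Psmb6 and -0.46 to -0.27 for Psmb10 to Psmb7, with adjusted exact permutation p values of 0.0476 (3 cases) to 0.238, and of 0.321 to 0.357 without Flox mice 4 and 6. Depth limits Ifng, Cxcl9, Cxcl10 and Gbp2b, which had few counts.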

Other observations

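Genes induced mainly by type I interferon were also lower by value in EpithelialKO lungs. Of 14 listed, all tested, 13 were negative, against 49.9% of all genes, and 1 was positive (Rsad2). Their median log2 fold change was -0.31. An unadjusted p under 0.05 in edgeR was reached by 3, all lower, against 6.52% of all genes lower at that level. Without Flox mouse 3, 11 were negative and 3 positive, with a median of -0.16. None passed the adjusted threshold. Bst2, which encodes the virion tether tetherin, was at 116, 158, 119, 130.1 and 136 CPM in Flox and at 111, 113, 107, 99.9 and 102 in EpithelialKO. All 5 EpithelialKO mice lay below all 5 Flox mice, as for 1.48% of genes (-0.31 ± 0.10 SE, edgeR adjusted p = 0.196). Ifi44 was at 8.37, 12.2, 12.4, 10.7 and 15.0 CPM in Flox and at 8.16, 9.45, 6.80, 7.14 and 6.54 in EpithelialKO, with 4 EpithelialKO mice below all Flox mice (-0.62 ± 0.19, edgeR adjusted p = 0.185). The summed level of the 14 genes was 361 to 554 CPM in Flox and 345 to 378 in EpithelialKO. Flox mouse 3 held the 554, and without it the Flox sums were 361 to 445 CPM. Irf7 had a log2 fold change of -0.53 (edgeR adjusted p = 0.279).

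Among class II pathway genes, 3 were positive, with Rfxank at 0.16 and Ctss at 0.08 on the log2 scale. The other was Ifi30, the thiol reductase of the endosome, which was at 88.9, 79.4, 85.6, 68.6 and 71.7 CPM in Flox and at 86.0, 90.2, 90.4, 104 and 93.3 in EpithelialKO, with 4 EpithelialKO mice above all Flox mice (0.24 ± 0.10 SE, edgeR adjusted p = 0.319). It was named after its values were seen. AT2 markers, which were 5 of 5 positive, lay in the same direction, as did alveolar macrophage markers, which were 4 of 5 positive. Without EpithelialKO mouse 22, however, 2 of those 5 macrophage genes were positive and 3 negative. Interstitial macrophage and monocyte markers were 4 of 6 negative. The part of these cell types in the level of Ifi30 was not tested.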
